A study of Mus musculus with 4 samples.

Results

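Peaks of a Tet1 chromatin immunoprecipitation (ChIP-seq) were examined at 7 highly transcribed housekeeping genes of the mouse, namely the polyubiquitin gene Ubb, the RNA polymerase II subunit genes Polr2a and Polr2e, the ribosomal protein gene Rpl4, and Ncl, Hnrnpu and Ddx5, which encode RNA-binding proteins. These were 7 of 21883 protein-coding genes in the gene table, and they were chosen by the listed peaks and their pileups, since an earlier look at these data had found peaks at them. Every peak whose summit lay in one of the genes or within 3 kb of it was taken, which gave 11 of the 620 listed peaks, 6 from wild-type (WT) and 5 from Tet1 knockout (KO) cells. Flow-sorted spermatogonia, the dividing germ cells that precede meiosis in the testis (20000 cells), came from strain 129 mice at 3 months of age. Each genotype had 1 ChIP library, made with an antibody to Tet1, and 1 input library, made without antibody. No treatment was named, and the deleted part of Tet1 in the KO mice, the cells in which it was deleted and the number of animals were not given in the sources used here. Peak lists hold no expression values, so the cell type, the loss of Tet1 and the transcription of the 7 genes were not checked.

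Tet1 is a dioxygenase that oxidises 5-methylcytosine, the methylated base found mainly in CG dinucleotides, and it is known to bind mainly at CG-rich gene starts. Ubiquitin is a small protein that marks other proteins for degradation. Ubb encodes it as a chain of head-to-tail copies that is cut after translation, and in the mouse loss of Ubb arrests germ cells in meiosis. RNA polymerase II transcribes messenger RNAs, ribosomal proteins build the ribosome, and the other proteins act on RNA in the nucleus and nucleolus.

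To show what sequence lay at the gene starts with and without a peak, the 250 bases before the RefSeq start (GRCm38.p6, the mm10 coordinates) are given for 5 of the genes, 5′ to 3′ in the direction of transcription, with every CG dinucleotide in capitals. Ubb had a WT and a KO peak at the start, Polr2a and Ddx5 a WT peak and Rpl4 a KO peak. The Hnrnpu window precedes its 1 start in the promoter table, 178337815, which lies 1076 bp inside the edge of the gene span used for distances, and no peak was listed at either position.
Ubb (chr11:62550921-62551170, + strand): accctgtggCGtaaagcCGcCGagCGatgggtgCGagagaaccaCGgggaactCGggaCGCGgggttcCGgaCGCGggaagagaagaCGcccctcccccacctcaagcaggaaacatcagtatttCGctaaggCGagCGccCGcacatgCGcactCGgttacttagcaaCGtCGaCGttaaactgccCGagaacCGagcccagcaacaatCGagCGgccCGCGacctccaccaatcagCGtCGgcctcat
Polr2a (chr11:69758634-69758883, - strand): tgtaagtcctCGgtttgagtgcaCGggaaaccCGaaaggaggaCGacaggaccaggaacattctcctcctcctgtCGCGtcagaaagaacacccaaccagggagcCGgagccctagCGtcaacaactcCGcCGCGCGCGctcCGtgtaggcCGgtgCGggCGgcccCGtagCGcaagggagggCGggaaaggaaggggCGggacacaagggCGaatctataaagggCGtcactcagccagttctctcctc
Ddx5 (chr11:106789186-106789435, - strand): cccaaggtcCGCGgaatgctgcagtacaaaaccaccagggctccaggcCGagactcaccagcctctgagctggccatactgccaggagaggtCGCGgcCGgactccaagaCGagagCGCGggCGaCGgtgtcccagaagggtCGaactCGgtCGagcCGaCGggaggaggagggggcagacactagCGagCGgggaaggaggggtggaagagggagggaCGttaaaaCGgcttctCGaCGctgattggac
Rpl4 (chr9:64173137-64173386, + strand): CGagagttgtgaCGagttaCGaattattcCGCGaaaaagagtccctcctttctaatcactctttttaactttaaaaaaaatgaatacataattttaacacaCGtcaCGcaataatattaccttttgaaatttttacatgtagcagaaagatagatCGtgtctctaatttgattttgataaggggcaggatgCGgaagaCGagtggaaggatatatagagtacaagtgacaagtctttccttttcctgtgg
Hnrnpu (chr1:178337816-178338065, - strand): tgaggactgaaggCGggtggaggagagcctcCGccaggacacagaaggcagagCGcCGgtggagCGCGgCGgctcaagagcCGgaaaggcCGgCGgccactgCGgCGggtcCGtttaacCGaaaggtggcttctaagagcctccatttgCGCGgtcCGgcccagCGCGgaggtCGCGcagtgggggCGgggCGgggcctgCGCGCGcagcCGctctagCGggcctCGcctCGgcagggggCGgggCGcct

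Ubb, Polr2a, Ddx5 and Hnrnpu were CG-rich before their starts, and Rpl4 was not. The windows held 30 CG dinucleotides at Ubb, 23 at Polr2a, 22 at Ddx5, 32 at Hnrnpu and 10 at Rpl4, against a median of 10 (quartiles 3 and 19) over 21262 windows of 17491 protein-coding genes. Rpl4 was thus at the median, and 49.9% of all windows held fewer. Its G+C content was 35.6%, which was exceeded by most windows, since 5.21% were lower, whereas those of Ubb and Polr2a were both 62.8%. The windows of Ncl and Polr2e each held 27 CG dinucleotides, and no listed peak reached into either of them. Polr2e did have a KO peak nearby, with its summit 319 bp before the start and so outside the window. The windows before further RefSeq starts held 22 CG dinucleotides at Ubb, with a KO peak, and 23 and 30 at Ddx5. A WT peak covered all 250 bases of the Ddx5 window with 23, and no peak reached into the window with 30. Which windows count as reached depends on the window edges, since a peak covered 5 bases at Polr2a. Whether CG content differed with the presence of a peak was not tested. Over all windows that a low-input peak reached into, the median was 17 CG dinucleotides in 64 WT windows and 16 in 18 KO windows. Low-input peaks were those on chromosomes with a local input background under 10 times the genome-wide value, and numbered 298 in WT and 132 in KO.

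**Figure D1:**
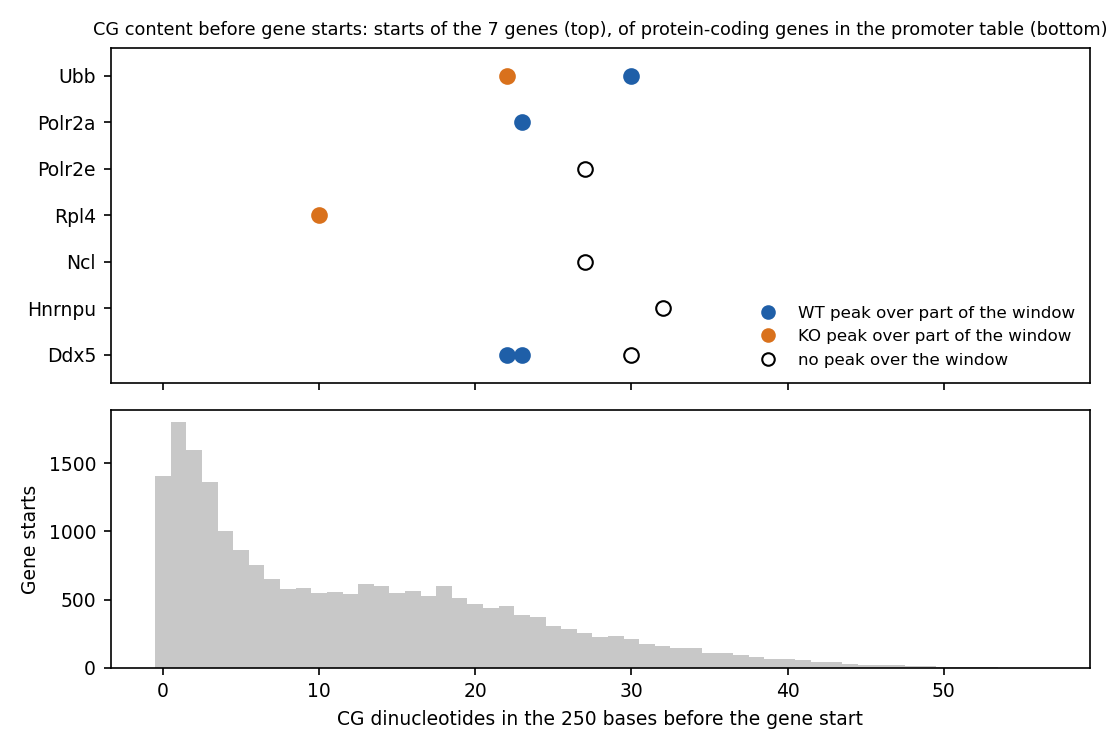
The upper panel gives the number of CG dinucleotides in the 250 bases before each RefSeq start of the 7 genes, 1 circle per start, coloured by the peak that covers at least part of the window, and the lower panel gives the number of gene starts at each CG count over the 17491 protein-coding genes of the promoter table. Rpl4, at 10, sits at the median of these starts, and the windows that no peak reached into at Ncl, Polr2e and Hnrnpu hold 27 to 32.

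Short motifs of housekeeping promoters were searched for on both strands of the same windows, and a match is a run of letters, not a binding site. Matches of one motif could overlap each other. The Ubb window held CCAAT, whose first base lay 20 bases before the start (-20), and this motif was in 35.4% of all windows. The Ddx5 window held its reverse complement, ATTGG, at -7. Polr2a had TATAAA at -33, a motif found in 11.6% of windows, GGGCGG at -93, -70 and -55 (42.6% of windows), and a match to the heat shock pattern GAANNTTC at -195 (6.17% of windows). Hnrnpu had GGGCGG at -67, -62 and -13. None of these motifs, nor CCGGAAG (8.98% of windows), was in the Rpl4 window.

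The 11 peaks were low. Their pileup, which is how many extended ChIP tags lay over the summit, ran from 6 to 10 in WT (median 6, 6 peaks) and from 5 to 11 in KO (median 7, 5 peaks), beside a median of 7 over low-input peaks in each list. Input did not stand out at any of them, as the local background was at most 1.52 times the genome-wide value in WT and 1.66 times in KO. The deposited q-values ran from 3.69e-08 to 0.0321 in WT and from 6.64e-10 to 0.0183 in KO. Of the 11 peaks, 5 had the shortest length in their list (299 bp in WT, 300 bp in KO), as had 102 of all 373 WT and 52 of all 247 KO peaks. The normalised pileup is the pileup per 1000000 ChIP tags left after duplicate removal, 3081692 for WT and 2235818 for KO (1.38 times as many in WT). As each group was 1 library, differences have no replicate check and none was tested, and the 95% intervals cover counting error only.

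**Figure D2:**
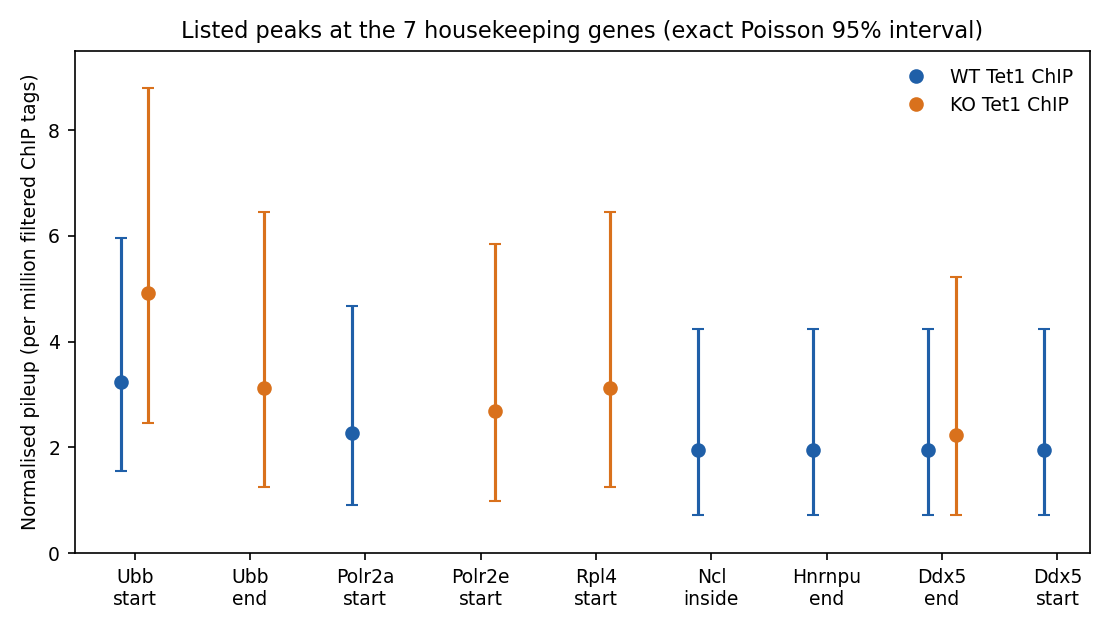
Normalised pileup (summit pileup per 1000000 filtered ChIP tags) is plotted for each listed peak at the 7 genes, with exact Poisson 95% intervals, and a missing point means that no peak was listed. Labels give the summit as within 500 bp of the gene start, within 2 kb of the gene end or elsewhere inside; the values lie between 1.95 and 4.92, and the 2 sites with points of both genotypes have intervals that overlap.

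Peaks were listed in WT for 5 of the 7 genes, in KO for 4, and in both for 2 of them (Ubb and Ddx5). Over all protein-coding genes the shares with a peak were 1.08% in WT, 0.379% in KO and 0.206% in both, but since the genes were chosen for their peaks nothing can be read from that contrast. WT peaks alone were listed at Polr2a, Ncl and Hnrnpu, and KO peaks alone at Polr2e and Rpl4. Overlap with the other list was found for 2 of the 6 peaks in WT and 2 of the 5 in KO, where the shares over low-input peaks were 19.1% in WT and 43.9% in KO.

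Ubb (chromosome 11, 62551171 to 62553213, + strand) had the highest pileups of the 7 genes in both lists. The WT peak (chr11:62551085-62551442) had 10 tags (95% interval 4.80 to 18.4), a normalised pileup of 3.24, and a deposited fold over input of 7.92. The KO peak (chr11:62551174-62551580) had 11 tags (5.49 to 19.7), a normalised pileup of 4.92, and a fold of 8.72. The KO value was the higher, and the WT/KO ratio of normalised pileups was 0.660 (0.251 to 1.71), an interval that includes 1. Among all 54 low-input sites with 1 peak in each list the ratio ran from 0.423 to 1.995 with a median of 0.907, and 9 were below that of Ubb. The interval excluded 1 for 0 of these 54 pairs (0%), so a missing difference at this depth does not show that the genotypes were alike. The Ubb peaks ranked 51st of 373 in WT and 18th of 247 in KO by fold.

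The Ubb summits of the 2 libraries lay near the same gene end. They were 128 bp inside the start in WT and 244 bp inside it in KO, 116 bp apart, where paired low-input summits were a median of 45.5 bp apart. The WT peak reached from within the gene to 86 bases before its start, and so covered the CCAAT match printed above. The KO peak began just inside the gene and reached into the 250 bases before the other RefSeq start of Ubb, at 62551731. In KO a further peak of 7 tags (chr11:62552983-62553282, interval 2.81 to 14.4, fold 5.97) had its summit 66 bp before the end of Ubb. No WT peak was listed there, and 7 KO tags correspond to 9.65 tags at the WT depth.

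The RNA polymerase II genes each had a peak near the start in 1 list. At Polr2a, the gene of the largest, catalytic subunit (chromosome 11, 69733997 to 69758633, - strand), the WT peak (chr11:69758340-69758638) had 7 tags (2.81 to 14.4), a normalised pileup of 2.27, and a fold of 5.96. Its summit was 66 bp inside the gene, and most of the peak lay inside too, with 5 of its bases before the start. No KO peak was listed, and the same density would give 5.08 tags at the KO depth. At Polr2e, the gene of a small subunit shared by the nuclear RNA polymerases (chromosome 10, 80035953 to 80039659, - strand), the KO peak (chr10:80039926-80040225) had 6 tags (2.20 to 13.1), a normalised pileup of 2.68, and a fold of 4.96. Its summit lay 319 bp before the start. No WT peak was listed there, where the same density would give 8.27 tags.

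Rpl4, which encodes a protein of the large ribosomal subunit (chromosome 9, 64173387 to 64178562, + strand), had a KO peak alone (chr9:64173015-64173314). It had 7 tags (2.81 to 14.4), a normalised pileup of 3.13, a fold of 6.39 and a background of 1.01 times the genome-wide value. Its summit lay 212 bp before the Rpl4 start and 71 bp from the nearer edge of the span of the neighbouring gene Zwilch, which encodes a kinetochore protein, so the peak cannot be given to one of the 2 genes. The peak covered the bases from -250 to -73 of the printed window. The snoRNA genes inside Rpl4 were further off, the nearest (Gm23344) at 1873 bp.

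Ncl encodes nucleolin, a nucleolar protein of ribosome synthesis (chromosome 1, 86344719 to 86359455, - strand). Its WT peak (chr1:86355967-86356368) had 6 tags (2.20 to 13.1), a normalised pileup of 1.95, and a fold of 4.94. The summit was not at the start but 3241 bp inside the gene and 46 bp from Snord82, a small nucleolar RNA gene nested in Ncl, and the peak covered Snord82 (86356260 to 86356327). Among the 11 peaks it was the one with a small RNA gene within 500 bp of its summit. The share over all low-input peaks is not given here, so nothing is read from this count. Hnrnpu encodes a nuclear scaffold and RNA-binding protein (chromosome 1, 178321108 to 178338891, - strand). Its WT peak (chr1:178322531-178322829) had 6 tags, a normalised pileup of 1.95, and a fold of 5.22. The summit was 1555 bp before the end of Hnrnpu, where the span of Cox20, a gene of cytochrome c oxidase assembly on the opposite strand, overlaps it. No KO peak was listed at Ncl or Hnrnpu, and 6 WT tags correspond to 4.35 at the KO depth.

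Ddx5, which encodes an RNA helicase of the DEAD box family (chromosome 11, 106780355 to 106789185, - strand), had a site in both lists and another in WT alone. The site found in both lists lay towards the end of the gene. The WT peak there (chr11:106781759-106782158) had 6 tags, a normalised pileup of 1.95, with a fold of 4.61, and the KO peak (chr11:106781769-106782310) had 5 tags (1.62 to 11.7), a normalised pileup of 2.24, with a fold of 4.60. The WT/KO ratio was 0.871 (0.221 to 3.61), which includes 1. The summits were 43 bp apart, 1462 bp (WT) and 1505 bp (KO) before the gene end, and 876 and 833 bp from the miRNA gene Mir3064. They were also within 3 kb of the neighbouring gene Polg2, 2280 bp (WT) and 2323 bp (KO) from its start. The other WT peak (chr11:106788901-106789358, 6 tags, fold 4.94) had its summit 73 bp inside the start of Ddx5, and also inside the span of the oppositely transcribed Cep95, which encodes a centrosomal protein. This stretch holds RefSeq starts of both genes, so the peak is not assigned to either one.

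**Figure D3:**
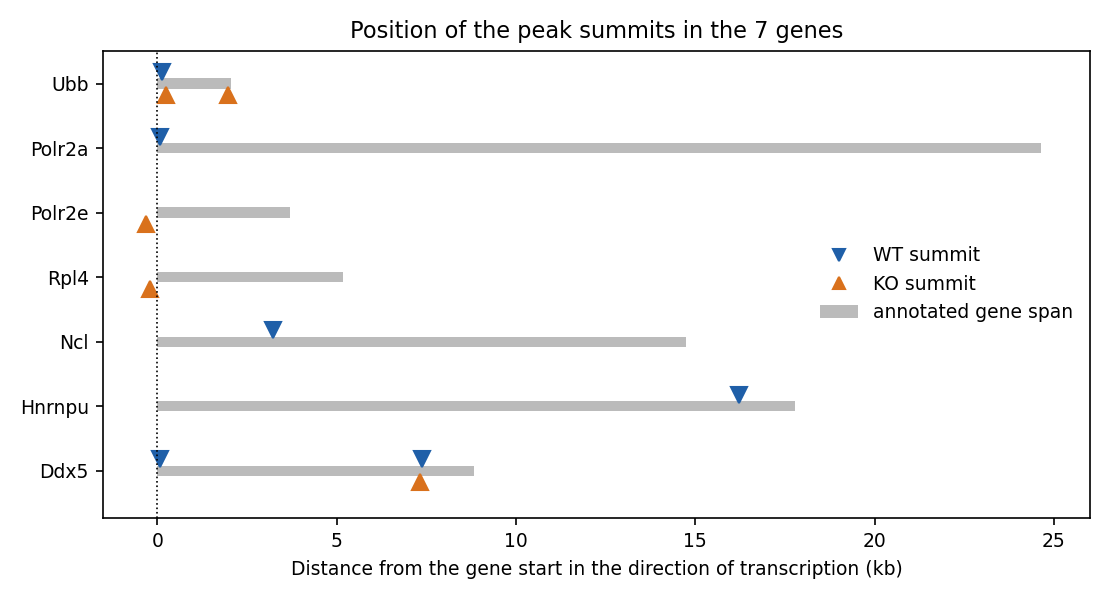
Summits of the listed peaks are shown by distance from the gene start in kb, in the direction of transcription, with WT as downward and KO as upward triangles and the annotated gene span as a grey bar. Ubb, Polr2a, Polr2e, Rpl4 and Ddx5 each have a summit within 500 bp of the start, while the summits of Ncl and Hnrnpu, the further KO summit of Ubb and the pair towards the end of Ddx5 lie elsewhere.

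Summits within 500 bp of the gene start were thus found at 5 of the 7 genes, for 3 of 6 WT and 3 of 5 KO peaks. Over all low-input peaks paired with a protein-coding gene whose strand was known, the share was 30.2% of 199 peak-gene pairs in WT and 35.9% of 64 in KO. The width of the window did not decide which peaks were taken, as the summit farthest outside its gene was that of Polr2e, at 319 bp (6 tags), and the nearest listed peak beyond the window was a WT peak of 5 tags (fold 4.47) at 109 kb from the same gene. With so few peaks these counts do not set the 7 genes apart. Exons, introns and untranslated regions were not used here. By fold, the peaks of the 7 genes were spread over their lists, with 38.6% to 86.3% of all WT peaks and 45.3% to 92.7% of all KO peaks lower. The median fold over all peaks was 5.22 in WT and 4.81 in KO, and 6 of the 11 exceeded it. Against the low-input peaks alone, with medians of 5.22 in WT and 6.13 in KO, 4 of the 11 did, 2 of 6 in WT and 2 of 5 in KO.

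**Figure D4:**
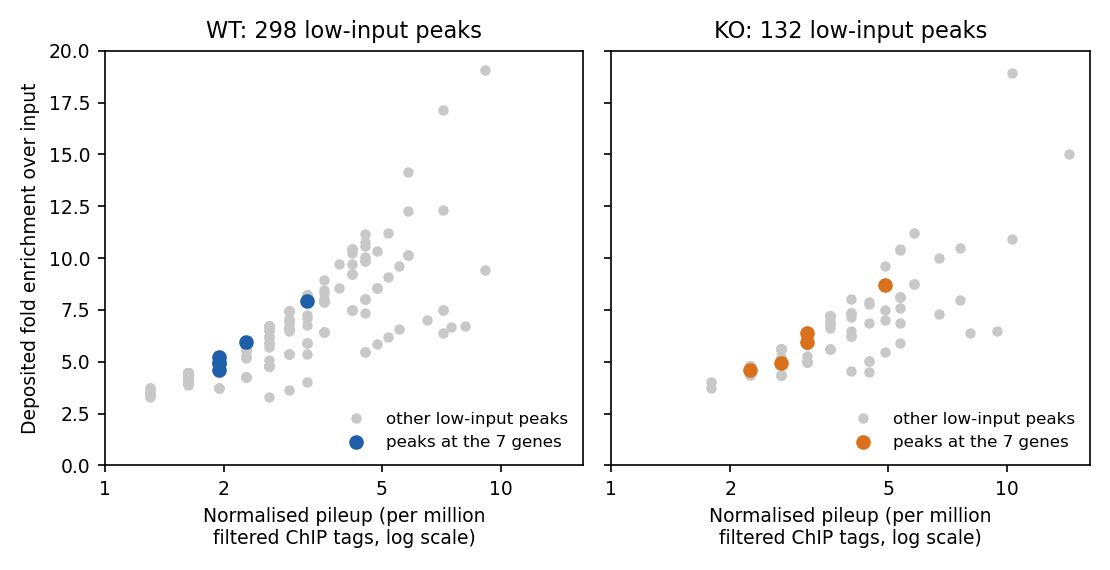
Deposited fold enrichment over input is plotted against normalised pileup (per 1000000 filtered ChIP tags, log scale) for the low-input peaks of each list, 298 in WT and 132 in KO, with the peaks at the 7 genes in colour. The coloured points lie among the grey ones, and the highest in each panel is Ubb, with a fold of 7.92 in WT and 8.72 in KO.

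The other genes of the same families, and those of a list of other housekeeping genes, mostly had no peak. Of these 186 genes together, 8 were listed in WT (4.30%) and 4 in KO (2.15%), beside 1.08% and 0.379% of all protein-coding genes. The other housekeeping genes made up 28 of the 186, and 2 of the 8 in WT and 2 of the 4 in KO. The lists were drawn up with earlier results known, so these shares are descriptions. By gene group, a peak in either list was found at 1 of 11 RNA polymerase II subunit genes, 0 of 45 genes of the large and 2 of 32 of the small ribosomal subunit, 1 of 19 nucleolar genes, 1 of 24 hnRNP genes, 1 of 27 helicase genes and 4 of 28 other housekeeping genes.

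Polr2i, which encodes another small subunit of RNA polymerase II (chromosome 7, 30232074 to 30233387), was the subunit gene with the highest pileups. It had 15 tags in WT (8.40 to 24.7, fold 10.4) and 10 in KO (4.80 to 18.4, fold 5.01), a WT/KO ratio of 1.09 (0.457 to 2.71). The summits lay 123 bp inside the start in WT and 18 bp before it in KO, and the neighbouring gene Tbcb was within 500 bp. The folds differed more than the pileups, and the KO input background at this site was 4.81 times the genome-wide value, against 1.60 times in WT. The genome-wide KO value was 0.248, and each KO input tag counted as 0.598 after scaling to the ChIP depth. The higher KO background thus rested on few input tags and has a wide counting error.

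Among ribosomal protein genes, Rps29 (small subunit) had peaks in both lists, of 11 tags in WT and 7 in KO (ratio 1.14, 0.404 to 3.47), with the summits within 500 bp of Rn7s1, the signal recognition particle RNA gene. Rps20 had a WT peak of 6 tags (fold 4.86). The nucleolar gene Npm1 and Hnrnpk had WT peaks of 4 tags each, with a q of 0.311, the weakest of the genes named here apart from a peak of 4 tags beside the actin gene Actg1 (q = 0.466). Actg1 had another WT peak of 7 tags (fold 5.55) near its end. Eif4a2, a translation initiation factor gene of the helicase list, had a WT peak of 7 tags (fold 5.96) whose summit lay 707 bp beyond its end and within 500 bp of Rfc4. Ywhaz had a WT peak of 5 tags (fold 4.32), and the cofilin gene Cfl1 a KO peak of 5 tags (fold 4.81) with its summit 1643 bp before the start, nearer to Mus81. The KO peak of Ldha, a lactate dehydrogenase gene, had the most tags of any of these, 23 (fold 10.9), where the KO input background was 4.81 times the genome-wide value. That background, as at Polr2i, rested on few input tags.

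**Figure D5:**
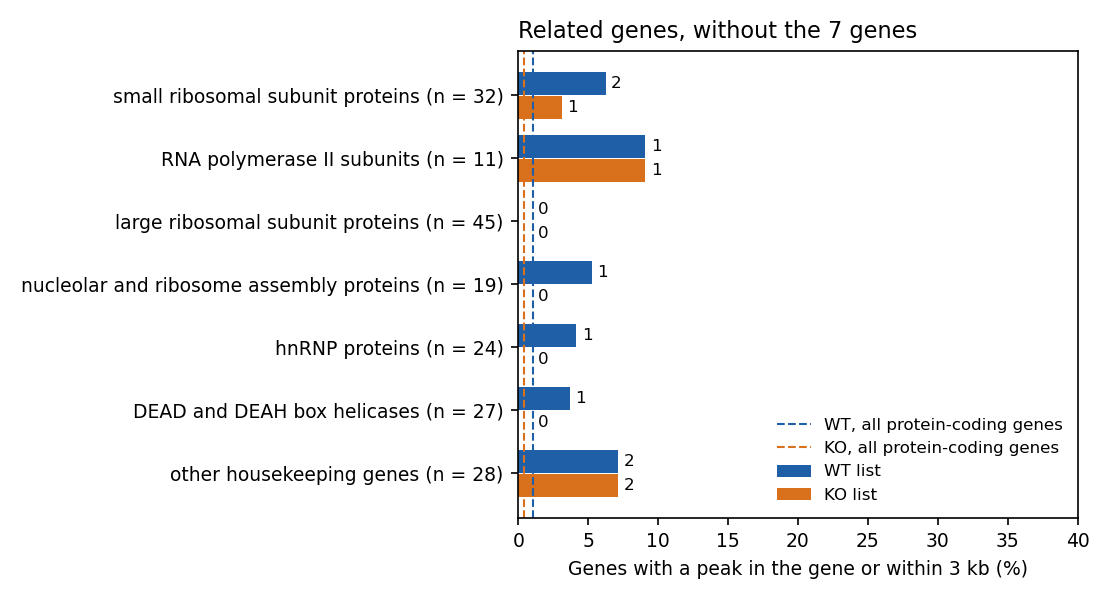
Bars give the percentage of related genes, without the 7 genes, that had a peak in the gene or within 3 kb in the WT and the KO list, with the number of genes at the bar end and n the genes in each group. Dashed lines mark all protein-coding genes, 1.08% in WT and 0.379% in KO, and each bar stands for 0 to 2 genes.

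Genes with low-input peaks in both lists were also ranked by how near their pair of values (log2 normalised pileup in WT and in KO) was to that of Ubb, over 2 libraries and 40 genes including Ubb. The nearest were Rmnd5a (9 tags in WT and 9 in KO, distance 0.33), then Aloxe3 and Hes7, which share a peak (13 and 11 tags, distance 0.38), Smyd3 (13 and 11 tags, distance 0.38) and Borcs6 (11 and 8 tags, distance 0.48), where the WT and KO peaks compared did not overlap. The Aloxe3 and Hes7 peak and the WT peak of Borcs6 had tRNA genes within 500 bp of the summit, and those of Rmnd5a, Smyd3 and Ubb had no small RNA gene there. Rmnd5a had its summits near a gene start as well, 243 bp (WT) and 281 bp (KO) before its start.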

How the data were processed

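The deposited files were 2 peak lists, 1 per genotype. Per the file headers, the authors ran MACS 2.1.1.20160309 once per genotype, ChIP against matching input, with a q cutoff of 0.5, the human preset for genome size, 1 tag kept per position and no pooling. The genome-wide background is inversely proportional to this genome size (2.7e+09 bases). A smaller size would raise that background and lower the folds of peaks whose local background was at its level. Trim Galore, Bowtie2, SAMtools, deepTools and the build mm10 are named in the submitters' processing notes. The deposited pileup is a signal, the count of extended ChIP tags at the summit. The deposited fold over input is a ratio, of pileup plus 1 to local background plus 1, and p- and q-values are deposited as −log10. Total tags before the filter were 4241117 (WT) and 2962767 (KO).

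Local background was recovered from pileup and fold, and the Poisson p recomputed from it matched the deposited one within 5% for 373 of 373 WT and 247 of 247 KO peaks. Genes came from a RefSeq table (GRCm38.p6). Strand and starts came from a RefSeq promoter table, which held all 7 genes and 17491 of 21883 protein-coding genes; genes without an entry were left out of distances from a start. Intervals are exact (Poisson for pileups, conditional binomial for ratios) at 95%, and peaks were paired by an overlap of 1 bp. Interval and assignment code was tested on simulated data. The simulated counts were not selected by a peak caller, so the coverage of the intervals at listed summits was not checked. Python 3.11.15, pandas 2.3.3 and scipy 1.17.1 were used.

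The 7 genes and the gene lists were chosen with earlier results of these data known. The genes named were the 7, every listed gene with a peak, and the 5 genes nearest to Ubb. Genes within 500 bp of a summit of the 7 were named too. The neighbours Mir3064, Gm23344 and Polg2 and some genes beside peaks of listed genes were named after their positions were seen. Some genes of the lists as first drawn up are not reported here, and Rps27a was counted with the small ribosomal subunit. Alternatives were the gene window, stricter peak limits, the depth, the signal measure, the pairing rule and the gene end used.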

Additional observations from a re-analysis of the deposited data

How the results depend on the processing

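Over 12 results, 44 values were recomputed under other settings, of which 35 stayed within 1.5 times (counts and shares of genes) or within their 95% interval, and 9 moved further. With a fold of at least 5, the 7 genes with a WT peak fell to 3, with a KO peak to 2 and with both to 1, the related genes with a WT peak to 4, and the shares of protein-coding genes to 0.658% in WT and 0.242% in KO, as this limit keeps fewer peaks. With a window of 10 kb the share of genes with a KO peak was 0.635%, and low-input summits within 500 bp of a start made up 21.3% of pairs in WT and 20.2% in KO, since the window adds distant pairs. The counts over the 7 genes were the same with windows of 1 and 10 kb and with q of at most 0.05. These settings could not change them, as no summit lay more than 319 bp outside its gene. The nearest listed peak beyond the window was at 109 kb, and the highest q was 0.0321. The WT/KO ratio ran from 0.635 to 0.908 at Ubb and from 0.838 to 1.002 at Ddx5, the highest from the deposited folds. The 95% intervals, 0.251 to 1.71 at Ubb and 0.221 to 3.61 at Ddx5, were wide, so staying within them shows little. No paired analysis was possible because each group had 1 library. Pileups of 5 to 11 tags limit every comparison: a pileup of 4 reached the weakest listed p at the genome-wide background in each list, and a peak missing from a list gives no value for that library.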
